A study of Mus musculus with 12 samples.

Results

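The genes described here are 10 genes that handle iron and heme, taken by symbol from an RNA sequencing table of mouse alveolar macrophages. They are Hp, Slc48a1, Hmox1, Tfrc, Slc11a1, Slc11a2, Ftl1, Fth1, Ncoa4 and Slc40a1, and all 10 were found among the 55291 genes of the table. These phagocytes, which live in the air spaces, were flow-sorted from the lungs of female C57BL6/NJ mice aged 8 to 11 weeks. A group of 6 mice had breathed 0.8 ppm ozone, and a control group of 6 mice had breathed filtered air. In both groups exposure lasted 4 h on each of 4 successive days, and lungs were taken 3 days after the last exposure. The mice carried no transgene or deletion that the labels name, and 1 library was made per mouse.

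Macrophages take up iron bound to transferrin, iron and heme from engulfed red blood cells, and heme or hemoglobin released into the airspace. Heme is opened by heme oxygenase, which frees its iron, and free iron is either stored inside ferritin shells or exported through ferroportin. Much of this is set after transcription: iron regulatory proteins bind a short hairpin, the iron-responsive element, and block translation when it lies before the coding sequence or stabilize the mRNA when it lies after it. An mRNA level of a ferritin gene or of ferroportin therefore does not give the protein level.

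Elements of this kind found in the 10 mRNAs are shown because they are the sequences through which iron acts on ferritin, ferroportin and transferrin receptor mRNA. The annotated GENCODE M21 transcripts (GRCm38, the mm10 assembly) were searched on the sense strand for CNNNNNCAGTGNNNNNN, in which the 5 bases before the CAGTGN loop pair with the 5 bases after it. A match in the 5′ untranslated region was found in 18 of 21877 protein-coding genes (0.0823%), and in the 3′ untranslated region in 51 (0.233%). Among the 10 genes, Fth1, Ftl1 and Slc40a1 had 1 match each in the 5′ region, and Tfrc had 4 in the 3′ region. A form of the Slc11a2 mRNA is also known to carry a 3′ element, and this pattern, which allows no extra or missing base, was not found in the annotated untranslated regions of Slc11a2. The loop is in capitals, and all matches are given 5′ to 3′ on the transcript's strand.
Fth1 (5′ untranslated region, plus strand, chr19:9982732-9982760): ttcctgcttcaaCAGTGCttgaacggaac
Ftl1 (5′ untranslated region, minus strand, chr7:45459779-45459807): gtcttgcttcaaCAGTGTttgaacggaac
Slc40a1 (5′ untranslated region, minus strand, chr1:45925465-45925493): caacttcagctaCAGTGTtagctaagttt
Tfrc (first of 4 in the 3′ untranslated region, plus strand, chr16:32631219-32631247): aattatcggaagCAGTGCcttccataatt

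The deposited table gives log2 values after variance stabilization. In each gene the filtered-air mean was set to 0, and a value gives the distance from it. The level of one gene can therefore not be compared with that of another. Total read numbers are unknown. Relative depth, read from the same low values, lay between 0.871 and 1.22. The scale compresses genes with few reads: a change of 1 log2 unit of reads moved the value by 0.349 at 100 reads and by 0.966 at 10000 reads, as estimated from the size of 1 read in the low values. All 10 genes had reads in all 12 mice and entered the test.

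All 14 alveolar macrophage markers had reads in every mouse. Of these, 5 passed limma's threshold after ozone: Car4 and Chil3 rose by 0.32 and 0.25, and Adgre1, Ear1 and Krt79 fell by 0.30, 0.28 and 0.35. The mean level of the list ran from -0.082 to 0.11 in filtered air and from -0.086 to 0.12 after ozone. Lists of 8 other cell types were examined beside them. In these 1 gene passed, Epcam of the epithelium, which fell by 0.55. The monocyte list ran from -0.27 to 0.35 in filtered air and from -0.16 to 0.22 after ozone, and the lymphocyte list from -0.25 to 0.33 and from -0.27 to -0.014. Filtered-air mouse 4 had the highest mean level of the filtered-air mice in 7 of the 8. It also had the lowest RNA integrity number, 8.9, and the highest value of its group in 5 of the 10 genes and the lowest in 1. The difference of each of the 10 genes is therefore given with and without this mouse. The part of other cells' RNA in these values was not tested. In sorted bulk RNA, fewer cells of a type and less RNA per cell cannot be told apart.

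No iron or heme gene of the 10 differed between ozone and filtered air past the threshold. With limma across 19633 genes, 0 of the 10 had an adjusted p under 0.05, where 4.25% of all genes tested did. At an unadjusted p under 0.05 there were 3, against 16.7% of all genes: Ftl1 and Slc40a1 had positive differences, and Slc11a1 had a negative one. These 3 also had an unadjusted p under 0.05 in the exact permutation test over mice. That test used the same values and was not run over all genes, so no share of all genes stands beside this count. In 0 of the 10 genes did the 6 ozone values lie wholly outside the 6 filtered-air values, where 3.53% of all genes did. Differences ran from -0.30 to 0.16 with a median of 0.0065, beside a median of -0.0033 over all genes tested. The median absolute difference was 0.036, beside 0.046 over all genes.

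**Figure D1:**
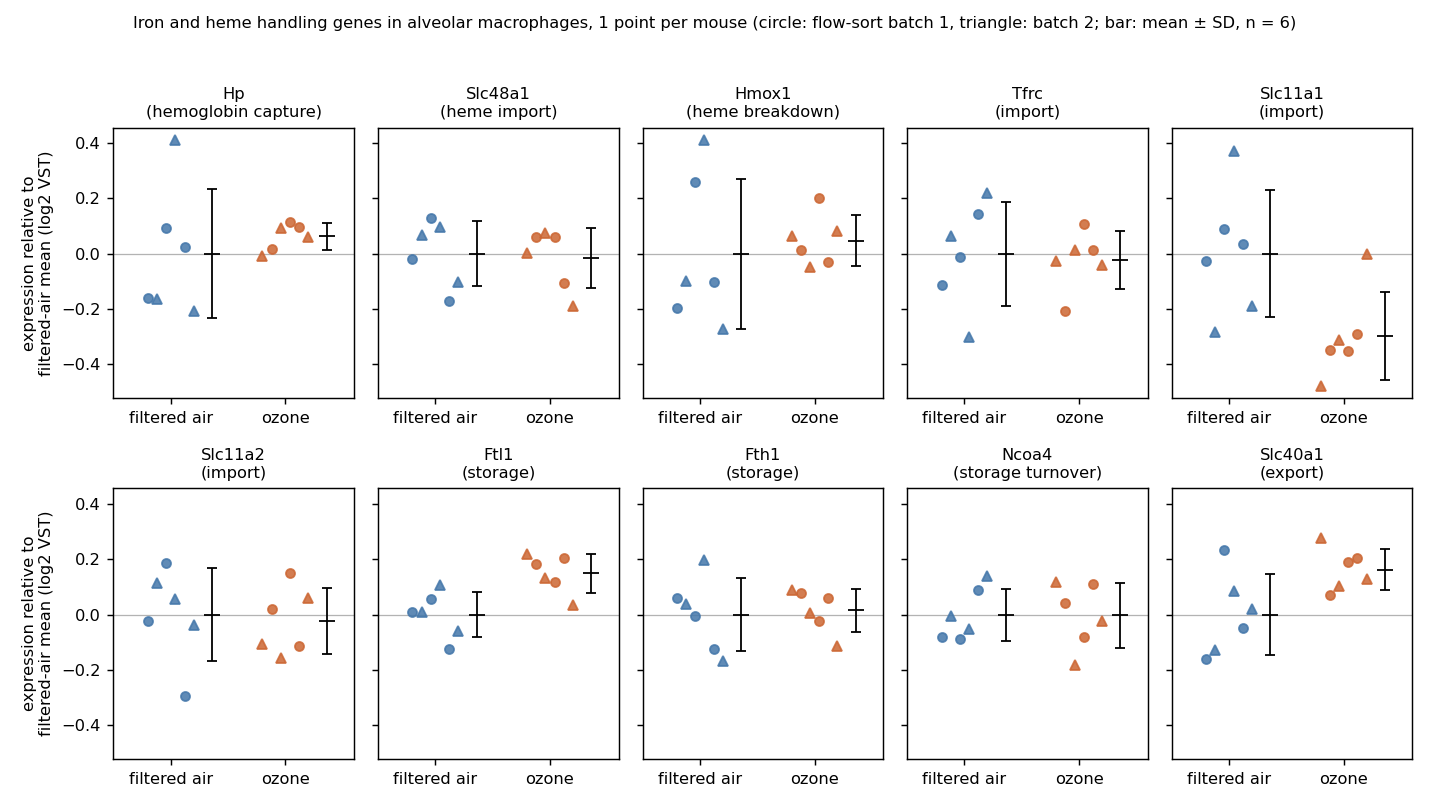
Expression of the 10 genes in each mouse, as log2 variance-stabilized values relative to the filtered-air mean (vertical axis), with filtered air in blue, ozone in orange, circles for flow-sort batch 1, triangles for batch 2 and bars for mean ± SD (n = 6). Ozone values lay below most filtered-air values in Slc11a1 and above most of them in Ftl1 and Slc40a1, while the groups lay over each other in Tfrc, Slc11a2, Slc48a1 and Ncoa4.

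Capture of hemoglobin and heme was represented by Hp and Slc48a1. Hp encodes haptoglobin, a secreted protein that binds free hemoglobin. Its values ran from -0.21 over a median of -0.067 to 0.41 in filtered air, and from -0.0068 over 0.077 to 0.11 after ozone. The ozone mice lay within the filtered-air range and close together, and 5 of 6 were above the filtered-air mean. The difference was 0.062 (SE 0.0866, 95% interval -0.12 to 0.25, limma's adjusted p = 0.797). Filtered-air mouse 4 held the 0.41, and without it the difference was 0.15 (limma's adjusted p = 0.129). It was 0.027, 0.026 and 0.016 without filtered-air mouse 1, 2 and 6.

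Slc48a1 encodes HRG1, which carries heme out of the phagolysosome. It ran from -0.17 over 0.024 to 0.13 in filtered air and from -0.19 over 0.032 to 0.076 after ozone, so that the ranges nearly coincided. The difference was -0.016 (SE 0.0617, 95% interval -0.15 to 0.12, limma's adjusted p = 0.942), and 0.0057 without filtered-air mouse 4.

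Heme breakdown was represented by Hmox1, which encodes the inducible heme oxygenase and is a classical target of the oxidant-responsive factor NRF2. It ran from -0.27 over -0.10 to 0.41 in filtered air and from -0.049 over 0.038 to 0.20 after ozone. Again the ozone mice sat inside the filtered-air range, with 4 of 6 above the filtered-air mean. The difference was 0.047 (SE 0.102, 95% interval -0.17 to 0.27, limma's adjusted p = 0.882). Filtered-air mouse 4 was the highest of all 12 mice, and without it the difference was 0.14 (limma's adjusted p = 0.442). Without filtered-air mouse 6, the lowest, it was -0.013.

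The spread of Hmox1 and Hp was wider in filtered air than after ozone. For Hp the SD was 0.234 against 0.0476 (n = 6 each), a ratio of 4.93 that was exceeded in 0.194% of the genes tested. For Hmox1 it was 0.272 against 0.0920, a ratio of 2.96 exceeded in 1.56%. The median ratio over all genes was 0.985. Most others of the 10 genes also lay above this median, though by less. Their ratios were 1.93 (Slc40a1), 1.80 (Tfrc), 1.71 (Fth1), 1.44 (Slc11a1), 1.39 (Slc11a2), 1.19 (Ftl1) and 1.09 (Slc48a1). Ncoa4 lay below it, at 0.803. Without filtered-air mouse 4 the filtered-air SDs of Hp and Hmox1 were 0.133 and 0.204. This contrast was noticed after the values were seen and was not tested.

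Iron import was represented by Tfrc, Slc11a1 and Slc11a2. Tfrc encodes the transferrin receptor, whose mRNA is stabilized through the 3′ elements shown above when iron is scarce. It ran from -0.30 over 0.027 to 0.22 in filtered air and from -0.21 over -0.0057 to 0.11 after ozone, with 3 of 6 ozone mice on each side of the filtered-air mean. The difference was -0.023 (SE 0.0790, 95% interval -0.19 to 0.15, limma's adjusted p = 0.933). Here filtered-air mouse 4 was the lowest of all mice, and without it the difference was -0.090 (limma's adjusted p = 0.568). Without filtered-air mouse 6, the highest, it was 0.026.

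Slc11a1 encodes NRAMP1, the divalent metal transporter of macrophage phagosomes and a known host resistance gene. Its difference had the greatest absolute size of the 10. It ran from -0.28 over 0.0047 to 0.37 in filtered air and from -0.48 over -0.33 to 0.00041 after ozone. Of the 6 ozone mice, 5 lay below every filtered-air mouse, and ozone mouse 6 lay at the filtered-air mean. The difference was -0.30 (SE 0.0998, 95% interval -0.51 to -0.084, exact permutation test p = 0.0195, two-sided), and limma's adjusted p was 0.123. A larger absolute difference was found in 1.91% of the genes tested.

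The value of Slc11a1 rested in part on single mice. Without ozone mouse 6 the difference was -0.36 and passed the threshold (limma's adjusted p = 0.0458). Without filtered-air mouse 4, the highest of its group, it was -0.22 (limma's adjusted p = 0.198). Flow-sort batch 1 gave -0.36 and batch 2 gave -0.23, with limma's adjusted p-values of 0.0314 and 0.779 within each batch alone.

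Slc11a2 encodes DMT1, which moves ferrous iron out of endosomes. It ran from -0.30 over 0.016 to 0.19 in filtered air and from -0.16 over -0.042 to 0.15 after ozone. The difference was -0.024 (SE 0.0761, 95% interval -0.19 to 0.14, limma's adjusted p = 0.924), and -0.012 without filtered-air mouse 4. The batches had opposite signs, 0.063 in batch 1 and -0.11 in batch 2.

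**Figure D2:**
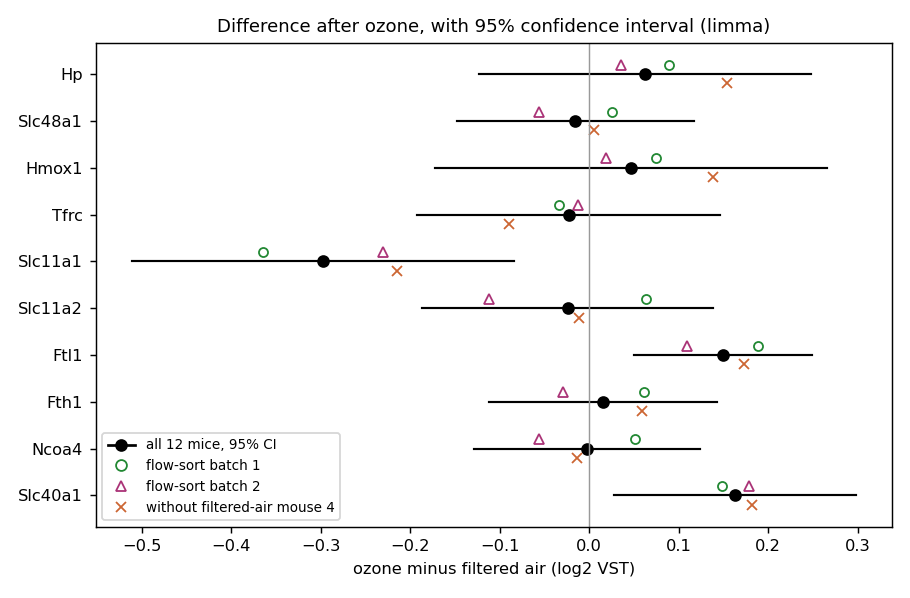
Difference between ozone and filtered air for each gene (horizontal axis, log2 variance-stabilized scale). Black points with lines are limma estimates over 12 mice with 95% confidence intervals, open symbols are the estimates within each flow-sort batch, and crosses leave out filtered-air mouse 4. The intervals of Slc11a1, Ftl1 and Slc40a1 did not include 0, before adjustment over genes.

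Iron storage was represented by Ftl1, Fth1 and Ncoa4. Ftl1 encodes the ferritin light chain, which favors mineralization of iron in the shell. It ran from -0.12 over 0.0096 to 0.11 in filtered air and from 0.033 over 0.16 to 0.22 after ozone. All 6 ozone mice lay above the filtered-air mean and 5 lay above every filtered-air mouse, with ozone mouse 6 the lowest. The difference was 0.15 (SE 0.0465, 95% interval 0.049 to 0.25, exact permutation test p = 0.00866, two-sided), and limma's adjusted p was 0.0950. Without ozone mouse 6 it was 0.17 and passed (limma's adjusted p = 0.0481). Without filtered-air mouse 4 it was also 0.17 and did not pass (limma's adjusted p = 0.0571).

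Reads of Ftl1 are hard to assign. Of the 919 stretches of 50 bases in its longest annotated transcript, the length of the sequenced reads, 90.6% also occur in transcripts of other genes, most often in Ftl1-ps1. The element shown above for Ftl1 occurs letter for letter in Ftl1-ps1. How reads were shared among such copies is not stated, so the value of Ftl1 is uncertain. Ftl1-ps1 and Ftl2-ps, listed under their own names, had differences of 0.042 and 0.016 (limma's adjusted p = 0.684 and 0.916).

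Fth1 encodes the ferritin heavy chain, whose ferroxidase activity loads iron. It ran from -0.17 over 0.017 to 0.20 in filtered air and from -0.12 over 0.033 to 0.088 after ozone, inside the filtered-air range. The difference was 0.016 (SE 0.0595, 95% interval -0.11 to 0.14, limma's adjusted p = 0.940), and 0.059 without filtered-air mouse 4. It shared 4.01% of its 50-base stretches with another gene.

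Ncoa4 encodes the receptor that delivers ferritin to the lysosome for iron release. It ran from -0.089 over -0.029 to 0.14 in filtered air and from -0.18 over 0.0091 to 0.12 after ozone. The difference was -0.0026 (SE 0.0588, 95% interval -0.13 to 0.12, limma's adjusted p = 0.991), the smallest in absolute size of the 10, and -0.014 without filtered-air mouse 4. Of its 50-base stretches, 43.1% also occur in the annotated gene Gm6768.

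Iron export was represented by Slc40a1, which encodes ferroportin, the cellular iron exporter. It ran from -0.16 over -0.014 to 0.23 in filtered air and from 0.072 over 0.16 to 0.28 after ozone. All 6 ozone mice lay above the filtered-air mean, but 1 of them lay above every filtered-air mouse, because filtered-air mouse 3 stood at 0.23. The difference was 0.16 (SE 0.0631, 95% interval 0.028 to 0.30, exact permutation test p = 0.0411, two-sided), and limma's adjusted p was 0.190. Without filtered-air mouse 3 it was 0.21 and passed (limma's adjusted p = 0.0404), and without filtered-air mouse 4 it was 0.18 (limma's adjusted p = 0.177). Batches 1 and 2 gave 0.15 and 0.18.

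Set side by side, the estimates were positive for the mRNA of the exporter (Slc40a1, 0.16) and of the light chain of storage (Ftl1, 0.15). The estimate was negative for the mRNA of the phagosomal metal transporter (Slc11a1, -0.30). Protein and transport activity were not measured, so these values do not give export, storage or transport. The other 7 genes lay between -0.024 (Slc11a2) and 0.062 (Hp). None of these passed the threshold over all genes. The ozone effect was also compared between the flow-sort batches. In limma's interaction test 0 of the 10 genes passed, as did 0% of all genes (510 of 19633 at an unadjusted p under 0.05), and the unadjusted p-values of the 10 genes ran from 0.266 for Slc11a2 to 0.900 for Tfrc.

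The genes were then compared with each other across mice, as deviations from the mean of their exposure group. Of the 45 pairs, 1 passed after adjustment: the ferritin chains Ftl1 and Fth1 deviated together over the 12 mice (Pearson r = 0.890, permutation within groups, p = 0.00046, adjusted p = 0.0207). Spearman's rho was 0.881, with p = 0.00123 and an adjusted p of 0.0553. Pearson's r was 0.865 within filtered air and 0.981 within ozone, and 0.860 without filtered-air mouse 5 and ozone mouse 6, the mice farthest from the median of Ftl1. The pair passed in 7 of the 12 sets that left out 1 mouse. It did not pass without filtered-air mouse 2 or 4, or ozone mouse 1, 4 or 6. Only these 45 pairs were tested, so no share of all gene pairs stands beside the count of 1. Genes outside iron handling also followed Ftl1 over the 12 mice. With the group difference left in, r with Ftl1 was 0.965 for Ap2s1, 0.965 for Cox5a and 0.953 for Eif3l. Whether the relation is particular to the ferritin chains was not tested.

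Other pairs fell short of the threshold, and the 3 with the next smallest p are given. Slc11a1 and Hp had a positive relation (r = 0.789, permutation p = 0.00434, adjusted p = 0.0817; rho = 0.720, permutation p = 0.0292, adjusted p = 0.328), with r = 0.768 without filtered-air mouse 4 and ozone mouse 6. Within filtered air r was 0.938 and within ozone 0.305. Hp and Hmox1 had a positive relation (r = 0.868, permutation p = 0.00545, adjusted p = 0.0817; rho = 0.762, permutation p = 0.0262, adjusted p = 0.328). Their r was 0.927 within filtered air and 0.120 within ozone, and without filtered-air mice 3 and 4 it was 0.679. Tfrc and Fth1 had a negative relation (r = -0.797, permutation p = 0.00828, adjusted p = 0.0931; rho = -0.678, permutation p = 0.0269, adjusted p = 0.328), with r = -0.514 without filtered-air mice 4 and 6, -0.949 within filtered air and -0.329 within ozone. None of these differences between the groups was tested. Filtered-air mouse 4 was the extreme point of all 3 pairs. Without ozone mouse 6 alone, Slc11a1 with Hp and Fth1 with Tfrc passed after adjustment.

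**Figure D3:**
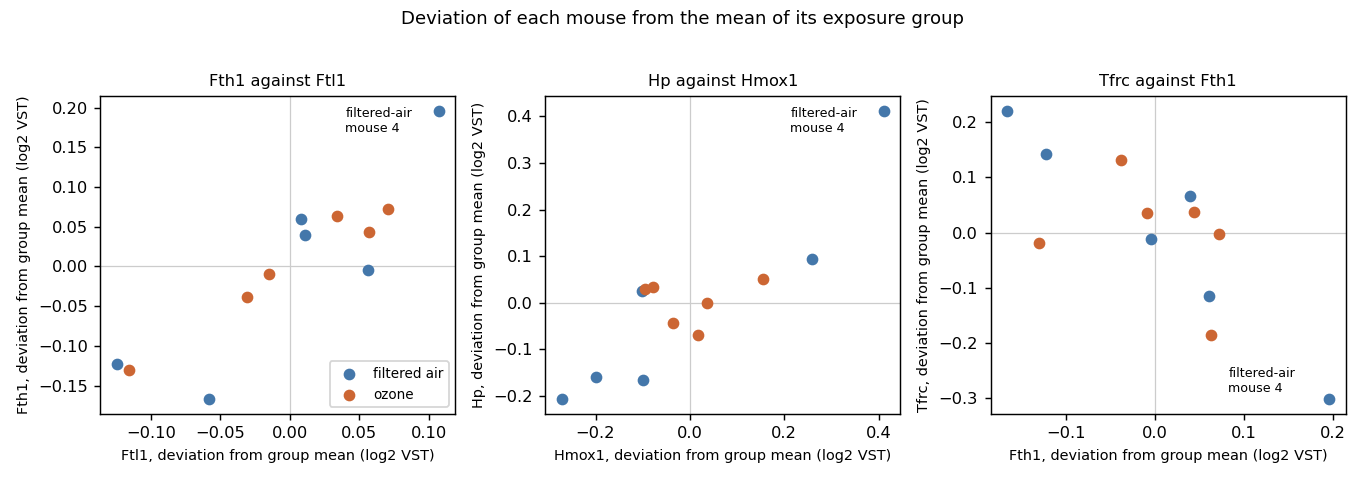
Deviation of each mouse from its exposure group's mean for 3 pairs of genes (both axes on the log2 variance-stabilized scale), with filtered air in blue and ozone in orange. The points of Fth1 against Ftl1 ran along a rising line in both groups, while filtered-air mouse 4 lay at the end of each plot.

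The wider pathway was read from 9 lists with 81 genes, of which 78 entered the test and 3 (Ftmt, Hamp and Hamp2) had too few reads. Positive differences numbered 44 and negative ones 34, where 48.0% of all genes tested were positive. Of the 78, 1 passed the threshold as higher, where 2.41% of all genes did, and 1 as lower, where 1.84% did. At an unadjusted p under 0.05 there were 18, or 23.1%, beside 16.7% of all genes. The median difference was 0.019.

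The higher gene was Steap3, which encodes the endosomal ferrireductase that prepares transferrin iron for export by DMT1. It ran from -0.037 to 0.046 in filtered air and from 0.085 to 0.27 after ozone, so the groups did not overlap. Steap3 rose by 0.17 (SE 0.0378, limma's adjusted p = 0.0189), by 0.20 in batch 1 and 0.15 in batch 2. Leaving out filtered-air mouse 1 ended the call (limma's adjusted p = 0.0515), as did quantile normalization (0.0973) and each batch alone. The other 12 genes of uptake and release, with Slc11a1, Tfrc and Slc11a2 among them, did not pass. Nearest was Slc39a14, which encodes the ZIP14 metal importer, with a difference of -0.13 (SE 0.0384, limma's adjusted p = 0.0795), and it passed without the batch covariate.

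The lower gene was Iscu, which encodes the scaffold on which mitochondrial iron-sulfur clusters are built. It ran from -0.075 to 0.055 in filtered air and from -0.18 to -0.082 after ozone, again without overlap. Iscu fell by 0.13 (SE 0.0346, limma's adjusted p = 0.0479). This value lay just under the threshold, and the call was kept in 2 of 12 fits when single mice were dropped, those without filtered-air mouse 6 or ozone mouse 1. The variance trend (limma's adjusted p = 0.0740), the RNA integrity covariate (0.0669), median centring (0.0531), quantile normalization (0.216), robust estimation (0.0503), the replicate block with flow-sort batch (0.0811) and each batch alone also ended it. Of its 50-base stretches, 15.5% also occur in other genes. The other 14 genes of mitochondrial iron did not pass, and the median difference of the list was 0.00023.

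Of the 11 genes of heme synthesis, 10 had positive differences, as did 48.0% of all genes tested. In limma 0 passed, and 5, or 45.5%, had an unadjusted p under 0.05, beside 16.7% of all genes. The median difference of the list was 0.077, beside -0.0033 over all genes. Alas1, the first and rate-limiting enzyme, had a difference of 0.10 (SE 0.0398, limma's adjusted p = 0.182), and Fech, which inserts the iron, one of 0.039 (limma's adjusted p = 0.752).

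Red blood cell markers are given beside these values, since erythroid cells make heme. Of 9 markers 7 were tested, and 0 passed. The mean level of the list ran from -0.061 to 0.10 in filtered air and from -0.035 to 0.27 after ozone. Their part in the heme synthesis values was not tested.

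Among the 13 genes of iron sensing and heme-responsive transcription, 0 passed, 5 had positive and 8 negative differences, where 48.0% of all genes tested were positive. At an unadjusted p under 0.05 in limma there were 5, or 38.5%, beside 16.7% of all genes, with 2 higher and 3 lower. Bach1, which encodes the heme-regulated repressor of Hmox1, was nearest to the threshold. It ran from -0.10 to 0.11 in filtered air and from -0.28 to -0.084 after ozone, with 4 of 6 ozone mice below every filtered-air mouse and a difference of -0.18 (SE 0.0485, limma's adjusted p = 0.0584). It passed without filtered-air mouse 3 and without the batch covariate (limma's adjusted p = 0.0453 and 0.0357). Spic, a regulator of iron-recycling macrophages of the spleen and marrow, had a difference of -0.14 (SE 0.0418, limma's adjusted p = 0.0788). Spic passed without the batch covariate and with the replicate block in its place, and not with both terms. Aco1, which encodes iron regulatory protein 1, had one of 0.095 (limma's adjusted p = 0.146), and Nfe2l2, which encodes NRF2, one of 0.033 (limma's adjusted p = 0.758).

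Of the 5 heme breakdown genes 0 passed. Hmox2, the constitutive heme oxygenase, had the smallest p of them, with a difference of 0.11 (SE 0.0479, limma's adjusted p = 0.246), and without filtered-air mouse 4 it was 0.15 (limma's adjusted p = 0.0811). In the list of heme and hemoglobin capture and transport 0 of 9 passed. Its smallest p was that of the porphyrin transporter gene Abcb6, with a difference of 0.080 (limma's adjusted p = 0.389), and of 0.053 without filtered-air mouse 2. Cd163, the receptor for the haptoglobin-hemoglobin complex, had a difference of -0.0085 (limma's adjusted p = 0.983). Of the secreted iron-binding proteins, Ltf, lactoferrin, had a difference of 0.15 (limma's adjusted p = 0.498), of 0.36 in batch 1 and of -0.049 in batch 2. Without filtered-air mouse 5 it was 0.068.

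**Figure D4:**
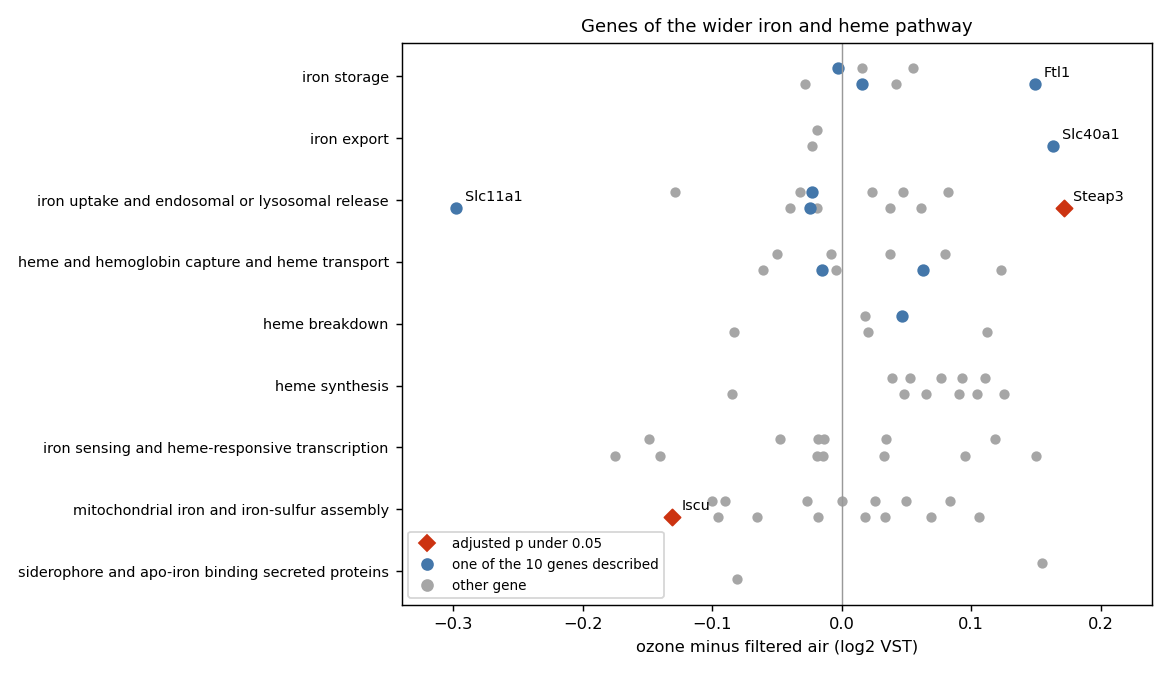
Difference between ozone and filtered air (horizontal axis, log2 variance-stabilized scale) for the 78 tested genes of the wider pathway, 1 row per list, with the 10 genes described first in blue and genes past the threshold as red diamonds. Steap3 lay at 0.17 and Iscu at -0.13, and 10 of the 11 points of heme synthesis lay to the right of 0.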

How the data were processed

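RNA of flow-sorted alveolar macrophages from 12 mice was analysed, 6 per group, with 3 mice of each group in each of 2 flow-sort batches. The deposited table holds variance-stabilized, batch-corrected log2 values, per the file's name; counts were not used here. Per the submitters' processing notes, cutadapt, STAR 2.7.7a, Salmon 1.5.2, DESeq2 1.26.0, R 3.6.0, limma 3.42.2 and mm10 were used; their roles are not given in the sources used here. The filtered-air mean and the difference between batch means were 0 in every gene. All 12 columns matched a sample title.

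Genes were kept where at least 6 mice lay above the minimum shared by mice without reads, which left 19633 of 55291. Differences were fitted across all genes kept by linear models of exposure plus flow-sort batch without a variance trend (limma 3.58.1, R 4.3.3) and adjusted by the Benjamini-Hochberg method at 0.05. Exact permutation tests used all 924 assignments of 6 mice against 6, two-sided. Mice were exchanged across the flow-sort batches and not only within them, so these p-values do not account for the batch correction. Pairs of genes were tested with 100000 permutations within groups.

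The 10 genes and the lists were chosen with earlier results of these data known. Genes named from the lists were those past the threshold and the one with the smallest p per list, of which some are not reported here; Slc39a14, Alas1, Fech, Spic, Aco1, Nfe2l2, Cd163, Hif1a and the ferritin copies were added for their role or after their values were seen. For the gene with the smallest p of the 10, the 3 genes most alike over mice were named. Alternatives covered filters, covariates, the replicate number as a block, the variance trend, robust estimation, quantile normalization, median centring, single batches and leaving out each mouse.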

Additional observations from a re-analysis of the deposited data

How the results depend on the processing

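None of the 10 genes passed under 11 of the 12 other settings, single mice aside (the replicate block was fitted in place of, and also together with, flow-sort batch); batch 1 alone called 1, Slc11a1. Leaving out 1 mouse gave 0 to 2 called genes: Slc40a1 without filtered-air mouse 3, and Ftl1 and Slc11a1 without ozone mouse 6. In the wider pathway 2 genes passed. They were Steap3 and Iscu. This count was 7 without the batch covariate and 1 with the replicate block plus flow-sort batch, the variance trend, robust estimation, the RNA integrity covariate, median centring or batch 1 alone. It was 0 after quantile normalization and in batch 2 alone, and 0 to 3 without single mice. The exact permutation test gave an unadjusted p under 0.05 in 3 of the 10 genes, in 1 after quantile normalization (Ftl1), and in 1 to 3 without single mice. The co-varying pairs numbered 1, 0 after quantile normalization and 0 to 2 without single mice.

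Signs turned in the following differences. Ncoa4 was 0.0040 after quantile normalization, 7.1e-05 after median centring and 0.051 in batch 1. Slc48a1 was 0.0016 with the RNA integrity covariate and 0.025 in batch 1, where Slc11a2 was 0.063. In batch 2 Fth1 was -0.030 and Ltf -0.049. Without single mice, Fth1 ran from -0.022 to 0.059, Hmox1 from -0.013 to 0.14, Ncoa4 from -0.030 to 0.038, Slc11a2 from -0.090 to 0.017, Slc48a1 from -0.053 to 0.023 and Tfrc from -0.090 to 0.026. The cause was not tested.

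Replicate numbers occur in both groups but mark different animals. Deviations of same-numbered mice correlated from -0.0026 to 0.28, with 4 of 6 pairs over 0.1 and 3 of 6 filtered-air mice closest to their own number. The mice were not treated as paired. With the replicate block 0 of the 10 genes and 3 pathway genes (Steap3, Iscu and Spic) passed. Read numbers of single genes are unknown, so how far the scale compressed each difference is unknown too.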

Other observations

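Ftl1 had the smallest p-value of the 10 genes, and the 3 tested genes whose values were most like its own over the 12 mice were Ap2s1, Cox5a and Eif3l. They encode a clathrin adaptor subunit, a subunit of cytochrome c oxidase and a subunit of a translation initiation factor. Pearson's r was 0.965 for Ap2s1, 0.965 for Cox5a and 0.953 for Eif3l, as a description of these mice. Their differences between ozone and filtered air were 0.11, 0.14 and 0.063, with limma's adjusted p-values of 0.298, 0.136 and 0.388.

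Hif1a, which encodes the oxygen-regulated subunit of a factor that acts on several iron genes, had separate groups without passing the threshold. It ran from -0.070 to 0.067 in filtered air and from 0.078 to 0.15 after ozone, with a difference of 0.12 (SE 0.0360, limma's adjusted p = 0.0845), and it passed without the batch covariate.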
